A study of Rattus norvegicus with 4 samples.

Results

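The 8 rat genes named *Pdcd* (programmed cell death) that were described are *Pdcd2*, *Pdcd4*, *Pdcd5*, *Pdcd6*, *Pdcd6ip*, *Pdcd7*, *Pdcd10* and *Pdcd11*. They were chosen by gene symbol from the deposited count table of 34773 genes, with their counts and the fold change of *Pdcd5* in this contrast already known, so their own differences between genotypes are a description. How many of them the fit across all genes called is counted below, and these calls are not evidence about the members. All 8 were among the 15028 genes that passed the filter on low counts. The polyadenylated RNA of 4 cultures was read. The WT culture was the rat embryonic stem cell (ESC) line DA-5-3 with a *Rex1*-GFP reporter of naive pluripotency, and the others were 3 *Thop1*-KO subclones (#1, #2 and #3), each with its own library, made from that reporter line with Cas9 and puromycin selection. *Thop1* encodes thimet oligopeptidase, a peptidase of the cytosol. All 4 carried the reporter and, by the study's methods, were kept on feeder cells in 2i/LIF medium. The paper calls DA-5-3 diploid, whereas the deposited design calls the cells haploid. Each subclone is 1 clone, and the WT group is 1 library, so the spread between replicates came from the subclones alone, and a difference between genotypes cannot be told apart from a difference between that WT culture and the others.

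The *Pdcd* symbol was given to genes that were first found in dying cells or linked to them, and the proteins do not form 1 family. They work in translation (PDCD4), chaperonin-assisted folding (PDCD5), escort of a ribosomal protein (PDCD2), calcium-dependent membrane repair and trafficking (PDCD6 and PDCD6IP), splicing of minor introns (PDCD7), vascular signalling complexes (PDCD10) and ribosome assembly (PDCD11). Several of these are basic functions that growing cells such as ESCs use heavily.

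*Thop1* was read first as a check of the labels. It measured 110 CPM (counts scaled to a common library size after TMM normalisation) in #1, 92.5 in #2 and 149 in #3 against 370 in WT, so every subclone was lower but none was without reads. The paper genotyped its subclones by DNA sequencing, and examined *Thop1* expression and, by western blotting, the THOP1 protein. The library totals lay between 15405499 and 17936544 counts. The summed level of 8 pluripotent markers was 6769, 5779 and 6816 CPM in #1, #2 and #3 against 6134 in WT. *Pou5f1* made up most of that sum (4842, 3889 and 4776 against 4794 CPM). Within that list *Esrrb* (330, 286 and 328 against 15.9 CPM) and *Tfcp2l1* (231, 254 and 280 against 34.5 CPM) were higher in the subclones (adjusted p = 0.00678 for both, edgeR quasi-likelihood test). Over the 8 markers WT lay below all subclones for 3 and above all for 1, *Lin28a* (57.6, 125 and 73.8 against 149 CPM). Their median log2 fold change was -0.06. The table holds 10 fibroblast markers, which could come from the feeders. They summed to 436, 856 and 566 CPM in the subclones and to 251 in WT, with *Lum*, *Dcn* and *Thy1* at 0 in all 4. Of the 7 tested 1 (14.3%) was called, beside 13.8% of all genes tested. This was *Col5a1*, higher in the subclones (110.9, 199.7 and 148.5 against 49.6 CPM, adjusted p = 0.0399, edgeR). For 6 of the 7 WT lay below all subclones, for 0 above all, and the median log2 fold change was 1.56. The 6 primitive endoderm markers summed to 7.39, 5.49 and 5.01 CPM against 2.56. Of the 5 endoderm markers tested 0 were called, beside 13.8% of all genes tested, and their median log2 fold change was 1.73. WT lay below all subclones for 4 of them and above all for 1, *Gata4* (3, 0 and 3 counts against 17). The part of these differences in the results below was not tested, and in bulk RNA fewer cells of a type cannot be told apart from less RNA per cell.

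*Pdcd5* encodes a small protein that binds the cytosolic chaperonin TRiC and takes part in p53-dependent cell death. The row named *Pdcd5* (ENSRNOG00000013250, chromosome 1, 91173473 to 91178801, minus strand, 657 exonic bases) held 5 counts in #1, 7 in #2 and 11 in #3 against 621 in WT. In CPM these were 0.298, 0.396 and 0.612 against 41.8. All 3 subclones sat far under the WT library, and the fitted log2 fold change was -6.55 (SE 0.41).

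The table holds a second row described as programmed cell death 5. It is named NEWGENE_1310561 (ENSRNOG00000050827), lies on the same chromosome and strand from 91961020 to 91966418, 782219 bases away, and has 643 exonic bases. It held 1007 counts in #1 and 981 in #2, but 13 in #3 and 16 in WT. In CPM these were 60.0, 55.5, 0.724 and 1.08. On this row #1 and #2 stood high while #3 stood with WT, so the subclones did not move together (log2 fold change 5.16, SE 2.30, adjusted p = 0.166, edgeR).

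Summed over both rows, the counts were 1012 in #1, 988 in #2, 24 in #3 and 637 in WT, or 60.3, 55.9, 1.34 and 42.9 CPM. Subclones #1 and #2 had 1.41 and 1.30 times the WT level, whereas #3 had 0.0312 times that level. The row that took the reads also differed between libraries. Of the reads on both rows, the row named *Pdcd5* took 97.5% in WT (95% Clopper-Pearson interval 96.0 to 98.6), but 0.494% (0.161 to 1.15) in #1 and 0.709% (0.285 to 1.45) in #2. In #3 it took 45.8% (25.6 to 67.2) of only 24 reads. These intervals cover counting error only. When the rows were summed before the fit, an alternative chosen after seeing that there were 2 rows, the log2 fold change was -0.13 (SE 1.41), and without #3 it was 0.44 (SE 0.42). The low value of the *Pdcd5* row in #1 and #2 thus stood beside a high value at its second row, and only in #3 were both rows low.

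**Figure D1:**
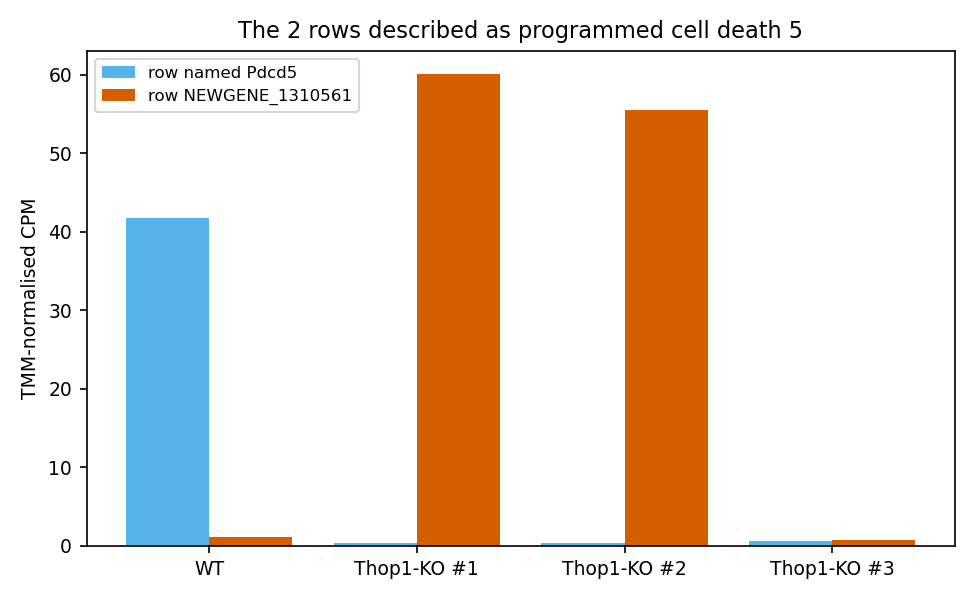
Bars show TMM-normalised CPM (vertical axis, from 0) of the row named *Pdcd5* and of the row NEWGENE_1310561 in each of the 4 libraries. WT had its reads on the first row, #1 and #2 on the second, and #3 on neither, with 24 counts in all.

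The genes around both rows were then compared. In RefSeq (assembly GRCr8) a single gene is named *Pdcd5*, between *Ankrd27* and *Dpy19l3*. In the deposited table it is NEWGENE_1310561 that lies between *Ankrd27*, 2257 bases away, and *Dpy19l3*. The row named *Pdcd5* has as its nearest tested gene an unnamed gene added by the authors and described as like *Ankrd27* (2262 bases away), and its nearest tested gene on the other side is *Cebpg*. Neither row overlaps another gene of the table, and the genes beside them did not follow them. *Ankrd27*, an ankyrin repeat protein of endosomes, held 298, 307 and 266 counts in the subclones against 61 in WT (log2 fold change 2.02, SE 0.38, adjusted p = 0.0231, edgeR) and was high in #3 too, unlike NEWGENE_1310561. *Nudt19*, a hydrolase of coenzyme A, was lower in the subclones (log2 fold change -1.89, adjusted p = 0.0263), as was another unnamed gene added by the authors (-1.28, adjusted p = 0.0270). The transcription factor *Cebpg* had 831, 907 and 1198 counts against 890 (log2 fold change -0.10, SE 0.29). *Tdrd12*, *Dpy19l3*, *Zfp507*, AABR07002997.1, *Cox7a1*, *Cebpa* and the other unnamed genes had log2 fold changes between -0.54 and 1.05 and were not called. A further RefSeq gene with *Pdcd5* in its symbol, *Pdcd5l1*, is the row RGD1564319 and held 0 counts in all 4 libraries.

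**Figure D2:**
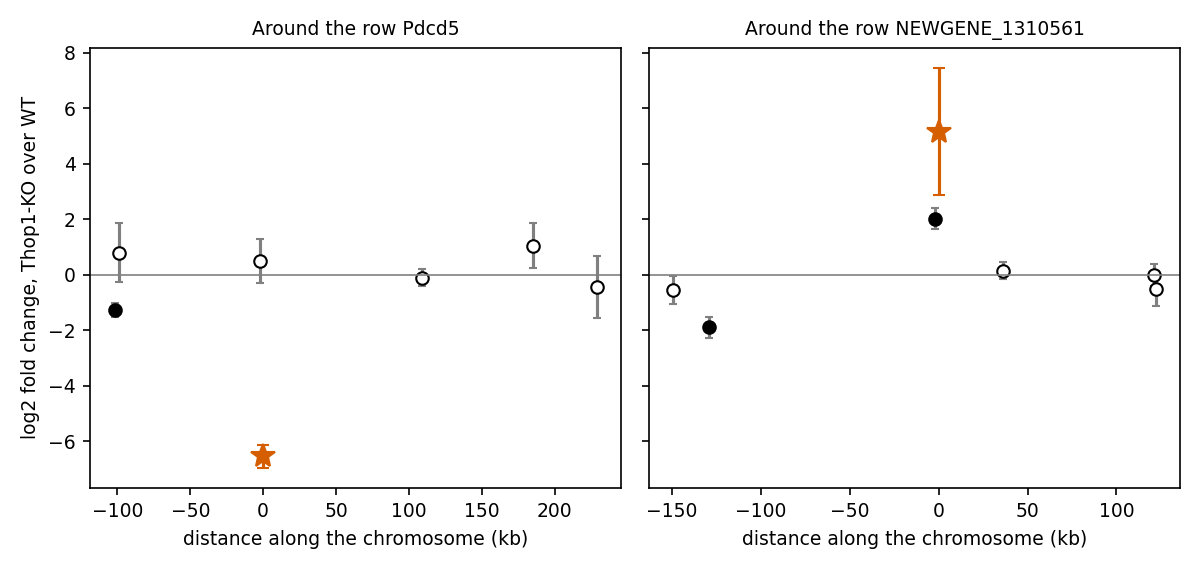
Log2 fold change (vertical axis, bars are the standard error) of the 3 tested genes on either side of each row, against distance from the row along the chromosome in kb. Stars mark the row itself, filled points genes with an adjusted p under 0.05. The stars lie at -6.55 and 5.16, outside the values of the 12 neighbours.

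A row whose name carries the rat genome database number of another gene was found for 23 genes of the table. In 6 of these pairs at least 1 row reached 50 counts in a library, and in 2 the row with more counts changed between libraries, with the 95% interval of the share on opposite sides of 50%. One was *Pdcd5*. The other, named after its values were seen, was *Wdr62*, which encodes a spindle pole protein, with 6, 10 and 13 counts in #1, #2 and #3 and 40 in WT, while its second row held 252, 147 and 320 against 17. In that pair #3 went with #1 and #2.

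The promoter of the RefSeq gene *Pdcd5* is shown because the results turn on this gene. By its neighbours this RefSeq gene has the place of NEWGENE_1310561, and it was matched to the row named *Pdcd5* by symbol alone. The promoter of *Pdcd11* is shown because it is the member with the most CPM and the only one that holds all 4 motifs searched. Both are RefSeq sequences of the assembly GRCr8, 250 bases before to 50 after the gene's start, 5′ to 3′ on the gene's strand, with motif matches in capitals. *Pdcd5* is chr1:97448035-97448334 (minus strand) and *Pdcd11* is chr1:255921975-255922274 (plus strand).
Pdcd5: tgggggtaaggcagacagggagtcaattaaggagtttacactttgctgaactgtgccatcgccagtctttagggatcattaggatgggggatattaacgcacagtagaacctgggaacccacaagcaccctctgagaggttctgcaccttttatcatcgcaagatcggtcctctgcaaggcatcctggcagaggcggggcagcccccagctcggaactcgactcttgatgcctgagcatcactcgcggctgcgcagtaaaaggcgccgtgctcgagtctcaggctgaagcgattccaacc
Pdcd11: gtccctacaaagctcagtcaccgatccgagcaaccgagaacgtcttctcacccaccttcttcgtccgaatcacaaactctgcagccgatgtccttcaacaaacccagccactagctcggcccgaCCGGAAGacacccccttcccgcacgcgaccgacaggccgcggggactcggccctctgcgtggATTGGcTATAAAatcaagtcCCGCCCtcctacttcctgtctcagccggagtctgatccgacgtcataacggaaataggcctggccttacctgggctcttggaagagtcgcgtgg
The motifs were searched on both strands. The NF-Y motif CCAAT was in 4 of the 8 members' promoters and in 37.5% of all 33469 promoters. The Sp1 motif GGGCGG was likewise in 4, with 33.1% of all promoters. The ETS motif CCGGAAG was in 4 and in 8.75% of all, and the TATA box TATAAA in 1 and in 14.2%. *Pdcd5* and *Pdcd7* held none of them in this window, which says only that these letters are not there.

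**Figure D3:**
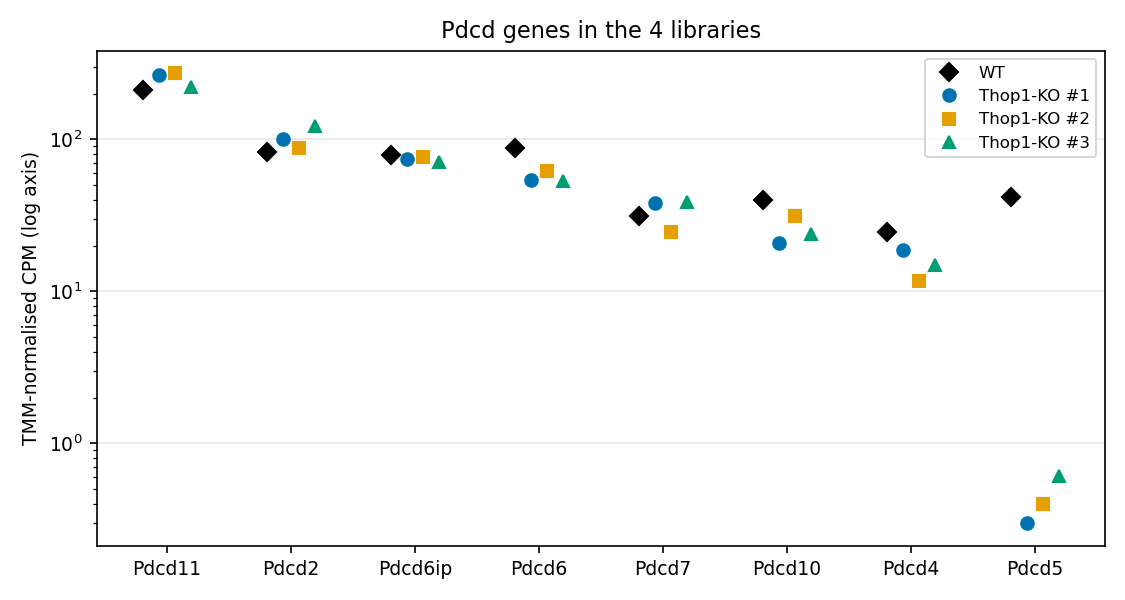
TMM-normalised CPM (log axis) of the 8 genes in WT and in the 3 *Thop1*-KO subclones, 1 point per library. Outside *Pdcd5*, whose subclones lie between 0.298 and 0.612, the points of each gene lie nearer to each other. They still run from 11.6 to 24.6 for *Pdcd4* and from 20.9 to 40.0 for *Pdcd10*.

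Across the 8 genes 0 were called higher and 1, *Pdcd5*, was called lower in the subclones. Over all genes tested 13.8% were called, 8.62% higher and 5.17% lower. At an unadjusted p under 0.05, *Pdcd6* was added, which makes 2. The WT library lay above all 3 subclones for 5 members, below all 3 for 2, and inside their range for 1, and it lay outside the range for 75.7% of all genes tested. As the members were chosen with this contrast known, nothing is read from these shares. The median log2 fold change was -0.38 over the 8 and 0.06 over all genes tested, and for the 7 genes other than *Pdcd5* it ran from -0.70 to 0.33.

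*Pdcd4* encodes a tumour suppressor that binds the helicase eIF4A and holds back cap-dependent translation. It measured 18.8 CPM in #1, 11.6 in #2 and 15.0 in #3 against 24.6 in WT. WT was the highest library, and the log2 fold change was -0.70 (SE 0.36). Of 11 genes of the eIF4F complex and of PDCD4 turnover, 1 (9.09%) was called higher and 0 lower, beside 13.8% called of all genes tested. The median log2 fold change of the list was 0.08. The gene called was *Eif4g1*, the scaffold of eIF4F, with 429, 500 and 387 CPM against 39.5 (log2 fold change 3.47, SE 0.30, adjusted p = 0.00678, edgeR). *Eif4a1*, the helicase that PDCD4 binds, had 1100, 1548 and 1151 CPM against 2176 (-0.78, SE 0.24, adjusted p = 0.0762) and was not called.

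*Pdcd2* encodes a protein that escorts the ribosomal protein RPS2 (uS5) and is needed by early embryonic cells. It measured 100 CPM in #1, 87.6 in #2 and 123 in #3 against 82.6 in WT, with all subclones above WT (log2 fold change 0.33, SE 0.28). *Pdcd2l*, its close relative in the table, had 53.4, 53.1 and 69.7 CPM against 48.9 (0.27, SE 0.29, adjusted p = 0.540). Both genes were highest in #3 and lowest in WT. *Rps2*, the client of PDCD2, had 6740, 5260 and 6693 CPM against 5081 (0.29, SE 0.21, adjusted p = 0.362). In the *Rps2* list 0 of the 3 genes were called, beside 13.8% of all genes tested.

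For *Pdcd5* the partner list held 15 genes. They were *Kat5* and subunits of the chaperonin and prefoldin, which fold newly made actin and tubulin. Of these 15 genes 0 were called higher and 1 (6.67%) lower (median log2 fold change -0.06), beside 13.8% called of all genes tested. *Cct8* was the one called, with 160, 192 and 186 CPM against 377 (log2 fold change -1.07, SE 0.22, adjusted p = 0.0279). *Cct2* (0.75, adjusted p = 0.0667) and *Cct3* (-0.48, adjusted p = 0.184) were not called and had opposite signs.

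*Pdcd6* encodes ALG-2, a calcium-binding protein that recruits partners to damaged membranes and to transport sites of the endoplasmic reticulum. It measured 53.6 CPM in #1, 61.8 in #2 and 53.3 in #3 against 88.0 in WT. The subclones lay close together, all under WT, and the log2 fold change was -0.65 (SE 0.24). *Pdcd6ip* encodes ALIX, which links ALG-2 to the ESCRT machinery that cuts membranes. It measured 73.7, 76.6 and 70.9 CPM against 79.0 (-0.10, SE 0.24), the narrowest spread between subclones of the 8 genes. Of the 12 penta-EF-hand genes and PDCD6 partners 2 (16.7%) were called lower and 0 higher, beside 13.8% called of all genes tested. These were *Cul3*, a ubiquitin ligase scaffold, with 15.6, 29.6 and 26.7 CPM against 79.3 (-1.73, adjusted p = 0.0300), and *Tfg*, a protein of these transport sites, with 13.5, 20.4 and 14.8 against 43.3 (-1.41, adjusted p = 0.0368). *Pef1*, which pairs with PDCD6, had a log2 fold change of -0.01 (SE 0.22), and the coat protein gene *Sec31a* 0.45 (SE 0.24, adjusted p = 0.224). Of 28 ESCRT genes 1 (3.57%) was called, *Vps37a*, with 6.38, 7.18 and 6.85 CPM against 17.8 (-1.38, adjusted p = 0.0376). *Tsg101*, an ESCRT subunit that ALIX binds, had 49.1, 58.8 and 49.9 CPM against 97.6 (-0.89, adjusted p = 0.0575) and was not called.

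*Pdcd10* encodes CCM3, which holds GCKIII kinases in the CCM and STRIPAK complexes and is mutated in inherited cavernous malformations of brain vessels. It measured 20.9 CPM in #1, 31.1 in #2 and 23.7 in #3 against 40.0 in WT, again with every subclone under WT (log2 fold change -0.66, SE 0.32). Of 17 genes tested in these complexes 3 (17.6%) were called higher and 0 lower (median -0.04), beside 13.8% called of all genes tested. The GCKIII kinase gene *Stk24* had 123, 115 and 108 CPM against 32.4 (1.83, SE 0.27, adjusted p = 0.0124). *Stk25*, of the same kinase group, had 314, 271 and 312 CPM against 131 (1.19, SE 0.24, adjusted p = 0.0278), and *Ppp2ca*, a phosphatase catalytic subunit, 28.7, 44.6 and 30.9 against 9.35 (1.89, SE 0.40, adjusted p = 0.0295). *Krit1* (CCM1) had 1.97, 2.77 and 2.28 CPM against 7.33 (-1.64, adjusted p = 0.0506) and *Ccm2* a log2 fold change of -0.64 (adjusted p = 0.168), both short of the threshold.

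*Pdcd7* encodes a protein of the U11 part of the minor spliceosome. It measured 38.0 CPM in #1, 24.7 in #2 and 38.8 in #3 against 31.5 in WT, the only member with WT inside the range of the subclones (log2 fold change 0.10, SE 0.35). Of the 10 genes of the U11/U12 list 0 were called, beside 13.8% of all genes tested, and their median was -0.54. *Snrnp35*, another U11/U12 protein, had a log2 fold change of -0.21 (SE 0.31, adjusted p = 0.669).

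*Pdcd11* encodes the rat counterpart of the yeast ribosome assembly factor Rrp5, which is needed for the small and large subunit. It was the member with most reads, at 265 CPM in #1, 272 in #2 and 222 in #3 against 212 in WT. All subclones lay above WT (log2 fold change 0.26, SE 0.24), and among themselves they covered a range of 0.3 in log2 CPM. Of 34 genes tested of the SSU processome, the particle that makes the small subunit, 1 was called higher and 4 lower (median log2 fold change -0.56). The share called was 14.7%, beside 13.8% of all genes tested. *Utp6* was higher with 24.6, 31.0 and 22.1 CPM against 9.08 (1.51, adjusted p = 0.0421). *Nop58*, the core protein of box C/D snoRNPs, was the lowest of the rest, with 25.0, 42.1 and 46.9 CPM against 130 (-1.78, adjusted p = 0.0258). *Rrp7a* (-1.44, adjusted p = 0.0192), *Imp3* (-1.15, adjusted p = 0.0278) and *Ngdn* (-0.96, adjusted p = 0.0462) were also lower.

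**Figure D4:**
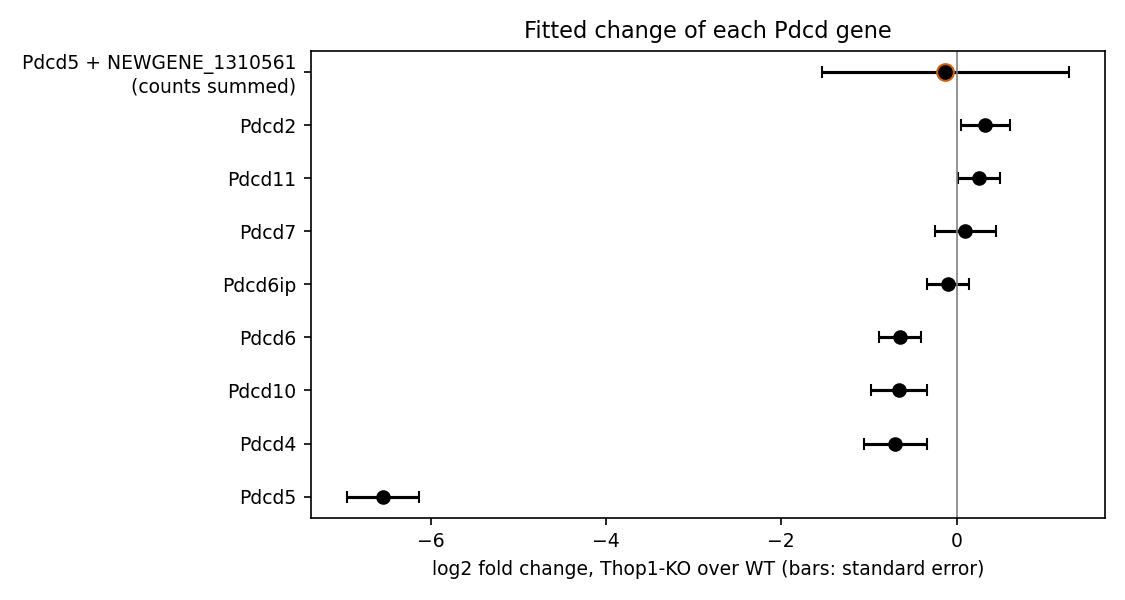
Fitted log2 fold change of the subclones over WT with its standard error (horizontal axis) for the 8 genes and for both *Pdcd5* rows summed. *Pdcd5* stands at -6.55, the 7 others lie between -0.70 and 0.33, and the summed value is -0.13 with a wide error.

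Over the 8 partner lists 130 of 134 genes were tested, of which 5 were called higher and 8 lower. These 13 genes stand beside 13.8% called of all genes tested. The counts moved with the subclones that were in the fit. Without #1, 5 were called higher and 6 lower. Without #2, 14 were called higher and 38 lower, and without #3 there was 1 in each direction.

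**Figure D5:**
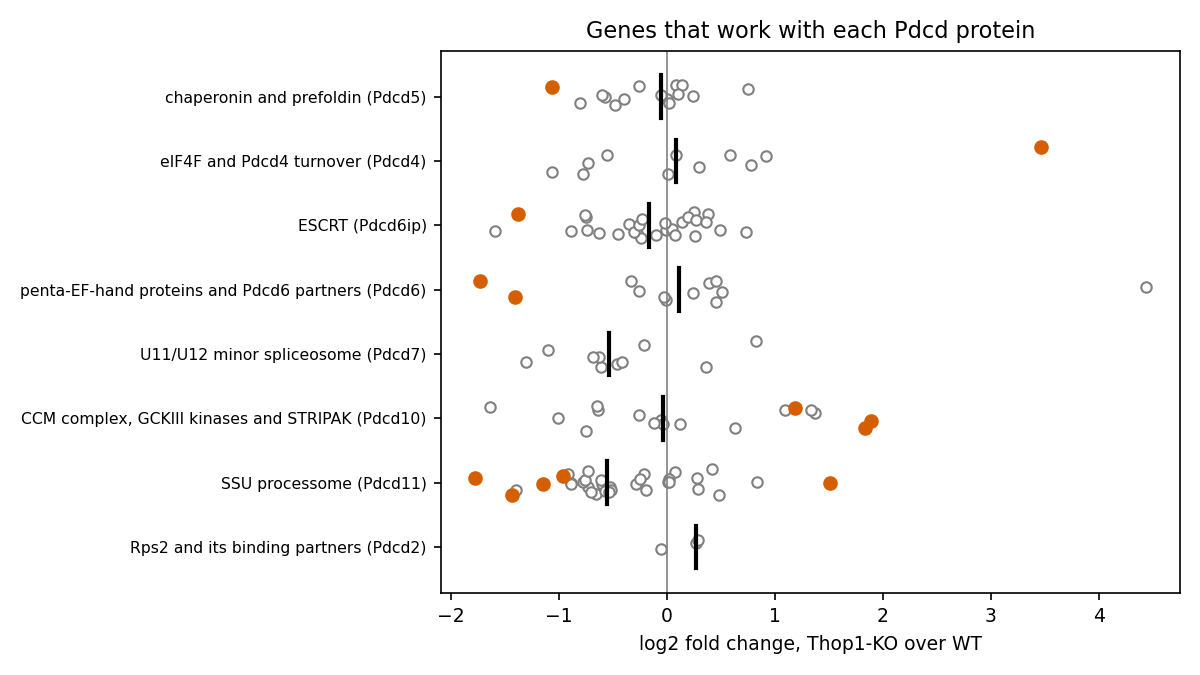
Each point is the log2 fold change (horizontal axis) of 1 tested gene in the list named at the left, coloured where its adjusted p was under 0.05. Vertical bars are the list medians, which lie between -0.56 and 0.27.

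Compared per length, in deposited FPKM over the 3 subclones, *Pdcd2* was the highest, between 76.2 and 105 (89.8 ± 14.7, SD, n = 3). *Pdcd11* (31.8 to 39.6) and *Pdcd6* (33.9 to 39.9) followed with overlapping ranges. *Pdcd10* (16.7 to 24.7) and *Pdcd7* (10.8 to 16.8) overlapped at their edges, and the range of *Pdcd6ip* (11.9 to 13.0) lay inside that of *Pdcd7*. *Pdcd4* (4.77 to 7.78) stood under all of these, and the row *Pdcd5* was lowest at 0.451 to 0.908. This ranking leaves out NEWGENE_1310561, which stood at 92.7 FPKM in #1 and 85.2 in #2, above *Pdcd2* in these subclones (87.6 and 76.2). It was at 1.10 in #3 and 1.65 in WT. In WT the row named *Pdcd5* was at 62.7 FPKM, behind *Pdcd2* at 71.8 and ahead of *Pdcd6* at 56.7. Among the subclones the SD of log2 CPM was 0.06 for *Pdcd6ip* and at most 0.37 for the 7 genes other than *Pdcd5*, beside a median of 0.33 over all genes tested. Among the subclones #2 was the lowest for *Pdcd2*, *Pdcd4* and *Pdcd7* and the highest for *Pdcd6*, *Pdcd6ip*, *Pdcd10* and *Pdcd11*.

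By the root mean square difference of centred log2 CPM over the 4 libraries, the genes most like the row *Pdcd5* were *Haus1* (0.41) and *Trh* (0.47), followed by *Acta1* (0.78), *Polr2h* (0.86) and *Coa8* (0.87). *Haus1*, an augmin subunit, held 4, 6 and 6 counts against 273 in WT, and *Trh*, which encodes thyrotropin releasing hormone, 3, 10 and 10 against 1039. Around the members, 48 tested neighbours were examined, the nearest 3 on either side of each at any distance. Beside *Pdcd10* the distance ran from 0.612 to 7640 kb, so not all were adjacent genes. Of the 48 neighbours 4 were called higher and 3 lower, or 14.6%, beside 13.8% of all genes tested.

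The remaining symbols of this kind were silent or nearly so. *Pdcd1*, the immune checkpoint receptor PD-1, held 0 counts in all 4 libraries, as did the second row that carries its number. *Pdcd1lg2*, the ligand PD-L2, held 2, 0 and 0 counts in the subclones and 2 in WT. Counts of up to 3 were taken as the floor, so these were not detectable at this depth.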

How the data were processed

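Raw counts per gene and FPKM values were deposited for 1 WT library and 3 *Thop1*-KO subclones. Per the submitters' processing notes the authors used HISAT2 2.0.5 and featureCounts 1.5.0-p3, and per the paper reads were cleaned with the FASTX toolkit; the genome build, annotation and strand setting are not given in the sources used here. Genes with overlapping or near-identical copies are therefore uncertain. The deposited FPKM equalled counts over gene length times 1 factor per library (within 1% for 100% of the genes checked in each library).

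Counts were analysed in R 4.3.3 with edgeR 4.0.16 (filterByExpr, minimum count 10, TMM, quasi-likelihood test, Benjamini-Hochberg over all genes tested, called at an adjusted p under 0.05). The SE was the log2 fold change divided by the root of F. CPM used TMM-scaled library sizes. Alternatives were DESeq2 1.42.0, limma 3.58.1 (log2 FPKM with a pseudocount of 1 or 0.1), other scalings, filters and thresholds, leaving out each subclone, and summing both *Pdcd5* rows (added after the data were seen). The test was checked on simulated counts. P-values measure the spread between subclones only. No pair of libraries was a duplicate by a chi-square test of counts.

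The members, partner lists and markers were chosen with earlier results of these data known. Genes named were the members, other *Pdcd* symbols, called and directly binding partners (at most 4 called per list), neighbours of a member with a log2 fold change over 2, the 5 most similar patterns, and *Thop1*. Beyond this rule, all 5 called genes of the SSU processome list, *Kat5*, *Wdr62* and some markers were named. Of the listed genes, *Chmp1b*, *Chmp4b*, *Heatr1*, *Zfp42* and *Col1a2* were not found under these symbols in the table. Sequences are from RefSeq, matched by symbol for 8 of 8 members. Python 3.11.15 made the tables and figures.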

Additional observations from a re-analysis of the deposited data

How the results depend on the processing

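Counts of calls moved by over 1.5 times when #2 or #3 was left out, and the cause was not tested. Leaving out each subclone gave 1 to 3 members called lower against 1 with all libraries. The 3 were counted without #2 and were *Pdcd5*, *Pdcd6* and *Pdcd10*. It gave 1 to 38 partner genes lower (8 with all), 1 to 14 higher (5 with all), 103 to 2476 of all genes lower (777) and 354 to 3096 higher (1295), in each case fewest without #3 and most without #2. At least 10 counts in every library left 0 members called, since *Pdcd5* is then not tested, and summing both *Pdcd5* rows also left 0 (log2 fold change -0.13). The summed value ran from -0.57 to 0.44 when a subclone was left out, with the positive value without #3, and was -1.17 with limma on log2(FPKM + 1), with or without a filter, and -1.33 on log2(FPKM + 0.1). Partner genes called lower were 5 with library size only, 5 with limma on log2(FPKM + 1), 5 on log2(FPKM + 0.1) and 0 with limma without a filter, which called 2 partner genes higher and 332 of all genes higher. DESeq2 called 1987 of all genes higher. An unadjusted p under 0.05 with a fold change of 2 gave 2443 higher and 1597 lower. *Pdcd7* (0.10) became -0.0043 with upper quartile scaling and -0.0078 without #3. Its values on leaving out a subclone ran from -0.0078 to 0.29. The log2 fold changes of the other members kept their sign in all 14 settings each. No paired analysis was possible because the WT group has 1 library with no replicate number to pair. Depth limits only the low rows: the 24 reads of #3 leave its share between both *Pdcd5* rows wide.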
